A study of Mus musculus with 29 samples.

Results

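Gene expression in the caudate nucleus of HdhQ150 mice at 18 months of age was compared with that of HdhQ150 mice at 12 months, across every gene that a probe set of the array names alone (19938 genes). The comparison used 10 of the 29 mice of the study, chosen by their labels: 4 HdhQ150 mice of 18 months, all female, and 6 HdhQ150 mice of 12 months, 4 female and 2 male. HdhQ150 mice carry an expanded CAG repeat knocked into the mouse huntingtin gene, Htt, as a model of Huntington's disease. The labels do not say whether the mice carry 1 or 2 copies of the repeat. HdhQ150 mice of 6 months (4 female, 1 male) and wild-type littermates of 18 months (4 female), 12 months (4 female, 1 male) and 6 months (3 female, 2 male) were used beside them. All mice share a background named 129/Ola x C57BL6/J, and none received a treatment that the labels mention. Each mouse gave 1 array and was measured at 1 age, and the labels name no batch, so that age cannot be told apart from anything else that differed between the collections of the age groups.

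The caudate nucleus is part of the striatum, the input station of the basal ganglia. Most of its neurons are GABAergic medium spiny projection neurons, which receive glutamate from the cortex and dopamine from the midbrain. Neurons of the direct pathway carry the dopamine receptor Drd1 with the peptides substance P (Tac1) and dynorphin (Pdyn), and neurons of the indirect pathway carry Drd2 and enkephalin (Penk). These neurons are the most vulnerable cells in Huntington's disease, and loss of their receptor, peptide and signalling transcripts is a known feature of mouse models. In tissue RNA of this kind, fewer cells of a type and less RNA per cell cannot be told apart.

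Levels are deposited log2 array values, so that a difference of 1 is a doubling. Differences are 18 minus 12 months with their standard error (SE), from limma on all 29 arrays with a term for sex, and adjusted p-values are those of Benjamini and Hochberg over the 19938 genes, read at a threshold of 0.05. Array medians lay between 6.91 and 7.05, and within both HdhQ150 groups each array had a mean correlation of 0.980 to 0.987 with the others. Levels of sex-linked genes fitted the labelled sex in all 10 mice compared, while 1 HdhQ150 mouse of 6 months did not match its label. The array of wild-type mouse WT-454 at 12 months had a mean correlation of 0.945 with its group. Values of the 18-month HdhQ150 mice are given in the order of mice 383, 412, 415 and 426, and the 6 mice of 12 months by their lowest, median and highest value.

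Htt itself was at 8.61, 8.99, 8.88 and 8.91 at 18 months, against 8.50, 8.65 and 8.80 at 12 months. The groups overlapped, and the difference of 0.16 (SE 0.064) did not pass (limma adjusted p = 0.169). It passed without mouse 383, with a difference of 0.24 (limma adjusted p = 0.0148).

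At 18 months 833 genes were higher and 321 were lower than at 12 months, 1154 genes in all, or 5.79% of those tested (4.18% higher and 1.61% lower). The median difference of the genes that rose was 0.40, that of the genes that fell -0.39, and that of all genes -0.02. Of the genes that rose, 39 differed by at least 2-fold, and of those that fell 1 did, Rxrg. The values of the 4 and 6 mice did not overlap for 604 of the genes that rose and 236 of those that fell, where 8.18% of all genes did not overlap (4.76% higher and 3.41% lower). Over all genes 44.3% of the differences lay above 0 and 55.7% below. Some of these counts leaned on single mice: without mouse 412 the number of genes called was 582, and without mouse 426 it was 692. Without the wild-type mouse WT-454, a male that enters the fit through the sex term and the shared estimate of the spread, it was 1789. Of 31 striatal projection neuron genes 25 fell (80.6%), and of 13 cortical excitatory neuron genes 10 rose (76.9%).

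The retinoid receptor genes Rxrg and Rarb were among the genes that fell most, and other members of the family are not described here. Rxrg, the gamma form of the retinoid X receptor, was at 8.91, 8.73, 9.21 and 8.76 at 18 months, against 9.76, 10.01 and 10.10 at 12 months. Its fall of 2.13-fold was the largest of all genes called lower (log2 difference -1.09, SE 0.112, limma adjusted p = 2.56e-06). Rarb, a retinoic acid receptor enriched in the striatum, was at 9.00, 8.71, 9.23 and 8.72 at 18 months, against 9.70, 9.79 and 9.88 at 12 months. It was 1.85-fold lower (log2 difference -0.89, SE 0.103, limma adjusted p = 5.23e-06). For both receptors all 4 older mice lay below all 6 younger ones. Rarb is a textbook target of retinoid receptors itself, through a direct repeat in its promoter, and for that reason the promoter is shown from the RefSeq table of build GRCm38.p6 (chr14:16575427-16575726, minus strand, 250 bases before the transcription start to 50 after it), 5′ to 3′, with the repeat in capitals:

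Rarb promoter: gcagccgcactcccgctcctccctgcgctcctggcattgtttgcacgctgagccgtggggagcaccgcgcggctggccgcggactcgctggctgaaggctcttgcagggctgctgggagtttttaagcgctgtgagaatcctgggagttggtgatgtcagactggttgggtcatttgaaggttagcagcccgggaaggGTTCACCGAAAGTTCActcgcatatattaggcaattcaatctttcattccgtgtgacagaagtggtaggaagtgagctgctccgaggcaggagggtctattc

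The repeat was searched on both strands as GTTCA or GGTCA, then 5 bases of any kind, then AGTTCA or AGGTCA, and gave 1 match, on the strand shown and ending 37 bases before the start, and 0.107% of the 32851 promoter windows in the table hold such a match. The match describes the letters and not a binding event.

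The receptors Drd2, Drd1 and Htr1b were lower too. Drd2 was at 10.30, 10.02, 10.52 and 10.17 at 18 months, against 10.96, 11.15 and 11.28 at 12 months. Drd1 was at 9.25, 8.97, 9.53 and 8.95 at 18 months, against 9.80, 9.92 and 9.99 at 12 months. Htr1b, a serotonin receptor of striatal axon terminals, was at 8.46, 8.50, 9.02 and 8.55 at 18 months, against 9.27, 9.55 and 9.77 at 12 months. Neither of the dopamine receptors nor Htr1b overlapped between the ages, with falls of 1.82-fold for Drd2, 1.67-fold for Drd1 and 1.95-fold for Htr1b. Gpr6, an orphan receptor of indirect pathway neurons, was 1.87-fold lower, and Chrm4, the muscarinic receptor of direct pathway neurons, was 1.35-fold lower (limma adjusted p = 0.000686).

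Of the 3 peptides, Penk and Tac1 passed the test and Pdyn did not. Penk was at 11.34, 11.33, 11.87 and 11.55 at 18 months, against 12.11, 12.23 and 12.46 at 12 months, with no overlap. Tac1 was at 10.31, 9.80, 10.61 and 10.11 at 18 months, against 10.73, 11.02 and 11.15 at 12 months, again with no overlap. Their differences were -0.71 (SE 0.094, limma adjusted p = 2.15e-05) for Penk and -0.80 (SE 0.150, limma adjusted p = 0.000943) for Tac1. Pdyn, at 7.85, 7.42, 8.15 and 7.72 against 7.84, 8.21 and 8.37, overlapped between the ages and did not pass (difference -0.39, SE 0.132, limma adjusted p = 0.0834). It passed with females alone (difference -0.45, limma adjusted p = 0.0227).

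Several members of the projection neuron list that act in signalling downstream of the dopamine receptors fell. Pde10a, the phosphodiesterase of medium spiny neurons, was at 10.72, 10.73, 11.09 and 10.86 at 18 months, against 11.49, 11.61 and 11.71 at 12 months. Ppp1r1b, which encodes DARPP-32, was at 10.90, 10.59, 11.01 and 10.66 at 18 months, against 11.28, 11.41 and 11.54 at 12 months. Ptpn5, the striatal tyrosine phosphatase STEP, was at 9.88, 9.68, 9.92 and 9.61 at 18 months, against 10.21, 10.31 and 10.40 at 12 months. None of the 3 overlapped between ages, and the falls were 1.69-fold, 1.55-fold and 1.45-fold. Also lower were Adcy5, the main adenylyl cyclase of the striatum (-0.62), the G protein subunits Gnal (-0.50) and Gng7 (-0.64), the phosphodiesterases Pde1b (-0.62) and Pde7b (-0.64), and Rgs9, which speeds G protein turn-off (-0.84).

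Among small GTPase regulators, Rasd2, which encodes the striatal GTPase Rhes, was at 9.72, 9.84, 9.99 and 9.90 at 18 months, against 10.38, 10.69 and 10.74 at 12 months. Rasgrp2, an exchange factor for Rap GTPases, was at 8.49, 8.40, 8.63 and 8.39 at 18 months, against 9.10, 9.35 and 9.43 at 12 months. Actn2, an actin crosslinker of dendritic spines, was at 8.63, 8.48, 8.88 and 8.54 at 18 months, against 9.30, 9.53 and 9.64 at 12 months. All 3 were without overlap, 1.71-fold, 1.83-fold and 1.82-fold lower. Gprin3, which binds G proteins, was 1.45-fold lower and the keratin Krt10 1.50-fold lower. Transcription factors in the projection neuron lists that fell were Foxp1 (-0.55), Foxp2 (-0.49), Bcl11b (-0.45), Meis2 (-0.49), Ebf1 (-0.55) and Sp9 (-0.40), while Isl1 (-0.39, limma adjusted p = 0.0781), Zfp521 (-0.33) and Eya1 (0.02) did not pass. Of 21 homeobox genes 4 fell (19.0%, beside 1.61% of all genes), Dlx5 (-0.66), Dlx6 (-0.50), Meis1 (-0.41) and Six3 (-0.36).

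**Figure D1:**
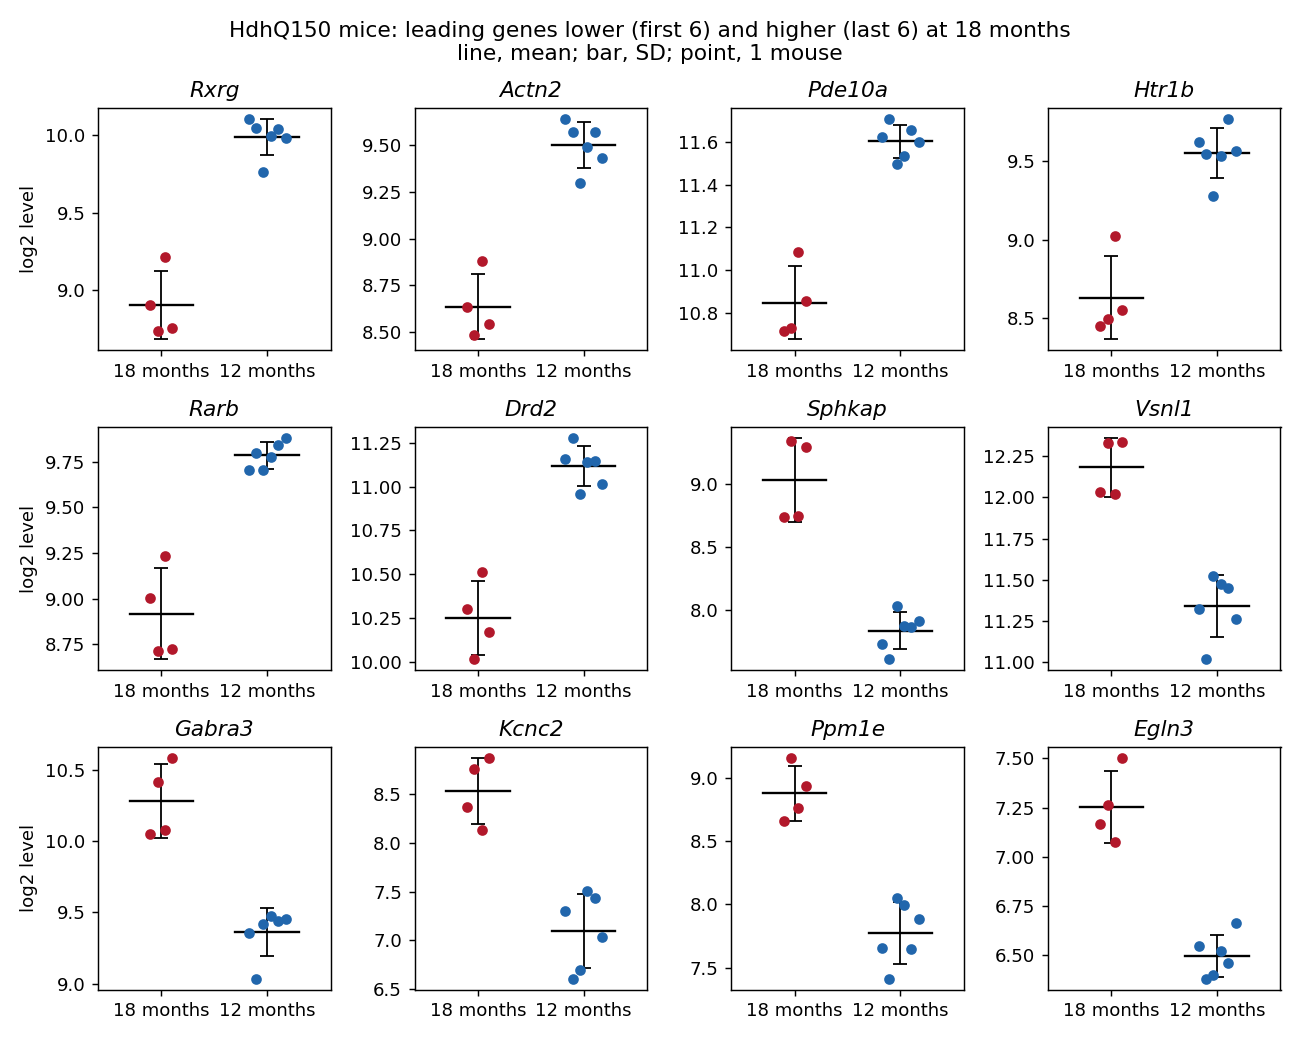
Log2 level of 12 genes in each HdhQ150 mouse at 18 months (red, left, 4 mice) and 12 months (blue, right, 6 mice). Points are mice, the horizontal line is the mean and the bar the SD. In each panel the mice of the 2 ages do not overlap: 6 genes lie lower and 6 higher at 18 months. The genes were chosen by smallest p in these mice, which makes such separation likely.

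Of 31 tested members of the projection neuron list, 25 fell, none rose and 6 did not pass, with a median difference of -0.54 beside -0.02 for all genes. The members that did not pass were Cnr1, the cannabinoid receptor (-0.31, limma adjusted p = 0.0721), Arpp19 (-0.23), Prkcd (0.29), Arpp21 (0.07), Kcnj4 (0.03) and Ppp1r1a (0.00). Of 10 direct pathway genes 5 fell, Drd1, Tac1, Chrm4, Slc35d3 and Ebf1, with a median of -0.41. Of 8 indirect pathway genes 5 fell, Drd2, Penk, Gpr6, Gpr52 and Sp9, with a median of -0.55. The shares that fell were 50% of direct and 62.5% of indirect pathway genes, beside 1.61% of all genes. Adora2a had no tested probe set. The glutathione peroxidase Gpx6 fell by 0.56 on the log2 scale (SE 0.137, limma adjusted p = 0.0108), a call lost without mouse 412 (limma adjusted p = 0.0870).

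Markers of striatal interneurons were mixed. Of 15 tested, 2 rose, Cck (1.62) and Pvalb (1.21), and 2 fell, Nos1 (-0.34) and Chat (-0.44), the enzyme that makes acetylcholine. Each was 13.3% of the list, beside 4.18% of all genes that rose and 1.61% that fell. Pvalb was at 8.03, 8.71, 7.30 and 8.53 at 18 months, against 6.41, 6.94 and 7.35 at 12 months, so that mouse 415 lay within the range of the younger mice. Both Cck and Pvalb are also made by neurons of the cortex.

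The largest rise of all genes called was in a marker of cortical excitatory neurons. Slc17a7, the vesicular glutamate transporter of cortical neurons, was at 10.88, 11.60, 11.21 and 11.41 at 18 months, against 6.82, 8.80 and 10.33 at 12 months. It was 5.83-fold higher (log2 difference 2.54, SE 0.467, limma adjusted p = 0.000825). Nrn1, a neurite growth factor, was at 8.95, 9.90, 8.73 and 9.36 at 18 months, against 5.99, 6.72 and 7.94 at 12 months. Tbr1, a transcription factor of deep cortical layers, was at 8.43, 9.27, 8.90 and 9.13 at 18 months, against 5.69, 6.71 and 8.14 at 12 months. The groups did not overlap for any of these 3, although the 12-month mice spanned a wide range. Of 13 tested markers 10 rose and none fell, with a median of 0.78. The other members that rose were Nptx1, Neurod1, Neurod2, Neurod6, Cux2, Rorb and Mef2c, and those that did not pass were Fezf2 (0.57), Lamp5 (-0.08) and Emx1 (-0.02). Without mouse 412 the number that rose was 6. Of 19 markers of septal, pallidal, thalamic and hypothalamic neurons, 1 rose, the glutamate transporter Slc17a6 (1.06), and 1 fell, Slc17a8 (-0.33). Each was 5.26% of that list, beside 4.18% of all genes that rose and 1.61% that fell.

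The mean level of the cortical markers in each mouse was 8.29, 9.10, 8.47 and 8.77 at 18 months, and lay between 7.13 and 8.05 at 12 months. The mean level of the projection neuron markers was 9.49, 9.36, 9.60 and 9.42 at 18 months, and lay between 9.85 and 10.02 at 12 months. Neither list overlapped between the ages. Mice 412 and 426 had the highest cortical and the lowest projection neuron levels of the older mice. The lowest cortical level of the older mice was that of mouse 383, and the highest projection neuron level that of mouse 415. Among the 12-month mice, mouse 464 had the highest level of both lists, 8.05 and 10.02. A relation between the lists across mice was not tested. How much cortical tissue each sample held was not measured in any other way, and cortical level and age cannot be told apart where the groups do not overlap.

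With the cortical marker mean as a further term in the fit, an alternative chosen after the data had been seen, 30 genes were called, 8 higher and 22 lower, and 21 of them had been called without it. The median SE was 0.135 with the term and 0.0935 without it. The projection neuron list then had a median of -0.43 with 30 of 31 members below 0, and 4 members passed: Actn2, Rasd2, Rasgrp2 and Pde10a. The 15 lower genes of smallest p kept their sign, between -0.88 and -0.34, and 6 of them passed, the other 2 being Rxrg and Htr1b. None of the 10 direct pathway genes passed with the term, Drd1 and Tac1 included (list median -0.18, beside -0.41 without it). None of the 8 indirect pathway genes passed either, Drd2 and Penk included (list median -0.38, beside -0.55 without it). The 15 higher genes of smallest p lay between 0.24 and 0.85, and 1 passed, Sphkap. The cortical list itself had a median of 0.05, which the fit sets near 0 by construction, since the term is the mean of that list. Among genes called with the term, Kcng1, a modifier subunit of potassium channels, had a difference of -0.62 beside -0.51 without it.

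**Figure D2:**
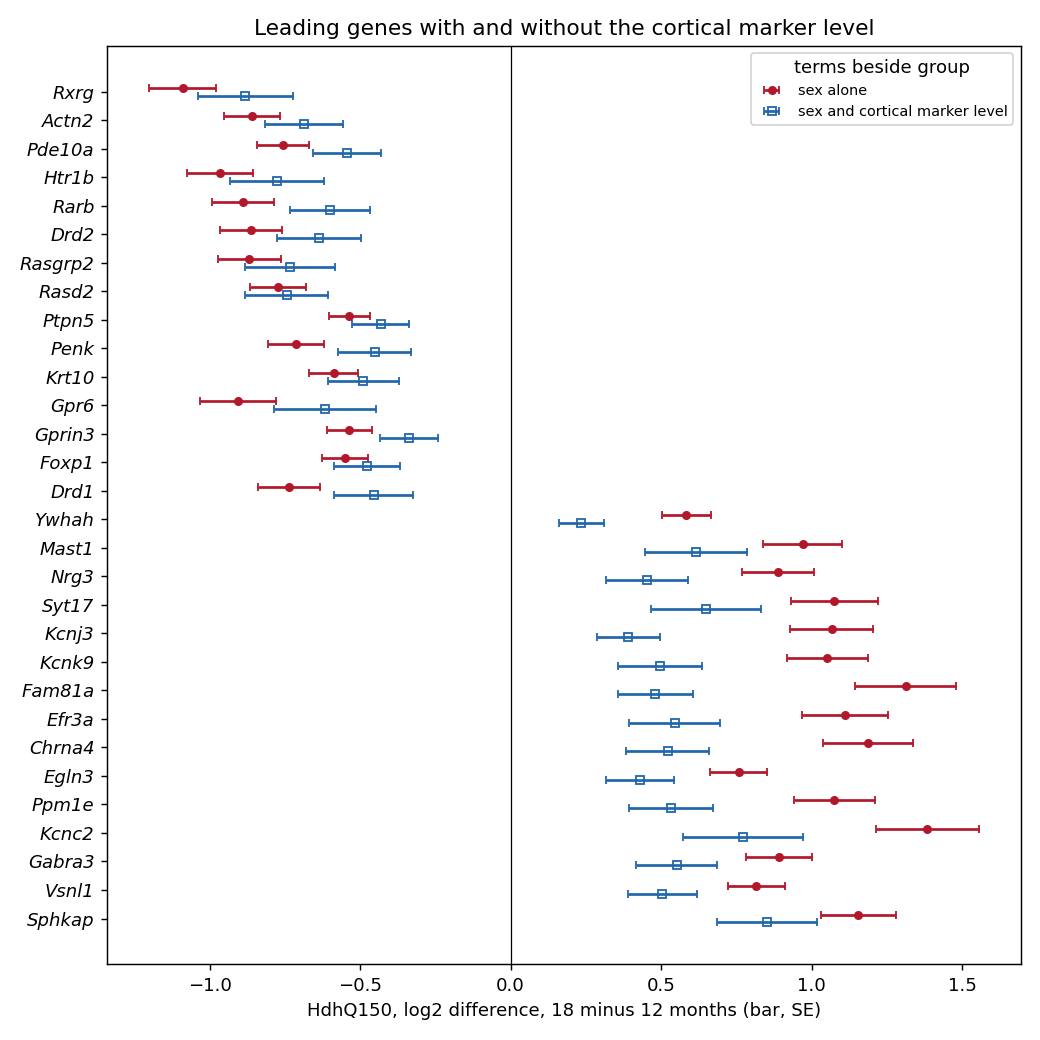
Differences of the 15 lower and 15 higher genes of smallest p in HdhQ150 mice, 18 minus 12 months on the log2 scale, with sex as the term beside group (red points) and with sex and the mean cortical marker level (blue open squares). Bars are SE. The squares lie closer to 0 than the points for all genes shown, and no gene changes side.

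The 15 higher genes of smallest p held no member of the cortical list. Sphkap, an anchor for protein kinase A, was at 8.74, 9.35, 8.74 and 9.30 at 18 months, against 7.61, 7.87 and 8.03 at 12 months. Vsnl1, a calcium sensor of neurons, was at 12.03, 12.33, 12.02 and 12.34 at 18 months, against 11.02, 11.39 and 11.52 at 12 months. Kcnc2, a fast potassium channel, was at 8.36, 8.75, 8.13 and 8.86 at 18 months, against 6.61, 7.17 and 7.50 at 12 months. In all 3 the ages were apart, with rises of 2.23-fold, 1.76-fold and 2.61-fold, and mice 412 and 426 held the 2 highest values. The same 2 mice had the highest cortical marker levels at 18 months, and a relation with these genes was not tested. Others of the 15 were the nicotinic receptor subunit Chrna4 (1.19), the GABA receptor subunit Gabra3 (0.89), the potassium channels Kcnk9 (1.05) and Kcnj3 (1.07), the signalling ligand Nrg3 (0.89), the kinase Mast1 (0.97), the phosphatase Ppm1e (1.08), the oxygen-sensing hydroxylase Egln3 (0.76), the membrane scaffold Efr3a (1.11), the 14-3-3 protein Ywhah (0.58), the synaptotagmin Syt17 (1.08) and Fam81a (1.31). No mouse of 18 months overlapped with one of 12 months for any of the 15, which choosing genes by smallest p makes likely.

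Potassium channel genes moved both ways: 14 of 40 rose (35%) and 10 fell (25%), beside 4.18% and 1.61% of all genes. Those that fell included Kcnip2 (-0.58), Kcnab1 (-0.65) and Kcnd2 (-0.48), which form or modify A-type channels, the inward rectifier Kcnj2 (-0.61), Kcna4 (-0.57) and Kcnn3 (-0.41). Those that rose included the Kv3 family members Kcnc1 (0.41), Kcnc2 and Kcnc4 (0.70), the G protein-gated channels Kcnj6 (0.97) and Kcnj9 (0.61), and Kcnh7. Kcnip2 was at 9.16, 9.49, 9.62 and 9.34 at 18 months, against 9.87, 9.95 and 10.06 at 12 months, with no overlap. With the cortical marker term no potassium channel gene rose and 2 fell, Kcng1 and Kcnip2. The list median was then -0.08, beside 0.15 without the term.

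Of 21 glutamate receptor genes, 3 rose, Grik1 (0.65), Grik4 (0.36) and Grin3a (0.44), and 2 fell, the metabotropic receptors Grm5 (-0.36) and Grm4 (-0.38). Of 13 GABA receptor genes, 3 rose, Gabbr2 (0.98), Gabra3 and Gabra5 (0.45), and 2 fell, Gabrd (-0.41) and Gabrg3 (-0.42). Of 24 presynaptic genes 11 rose, among them Stx1a (0.95), Sv2b (0.73), Vamp1 (0.80) and Rims1 (0.50), and 4 fell: Gad1 (-0.36), which makes GABA, its vesicular transporter Slc32a1 (-0.33), Syn3 (-0.31) and Sv2c (-0.52). Without mouse 412 or without mouse 426, 5 presynaptic genes rose and 1 fell. Of 34 calcium signalling genes 8 rose, such as Camk1 (0.61) and Cacna1g (0.76), and 5 fell, such as Calb1 (-0.58) and Ryr3 (-0.47). Of 24 neuropeptide genes 2 rose, Cck and Adcyap1 (0.88), and 2 fell, Penk and Tac1. The shares that rose were 14.3%, 23.1%, 45.8%, 23.5% and 8.33% in the order of these lists, beside 4.18% of all genes. The shares that fell were 9.52%, 15.4%, 16.7%, 14.7% and 8.33%, beside 1.61% of all genes. With the cortical marker term no presynaptic, calcium signalling, GABA receptor or neuropeptide gene passed, and 1 glutamate receptor gene was higher, Grik1 (0.80). The presynaptic median was then 0.02, beside 0.20 without the term.

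**Figure D3:**
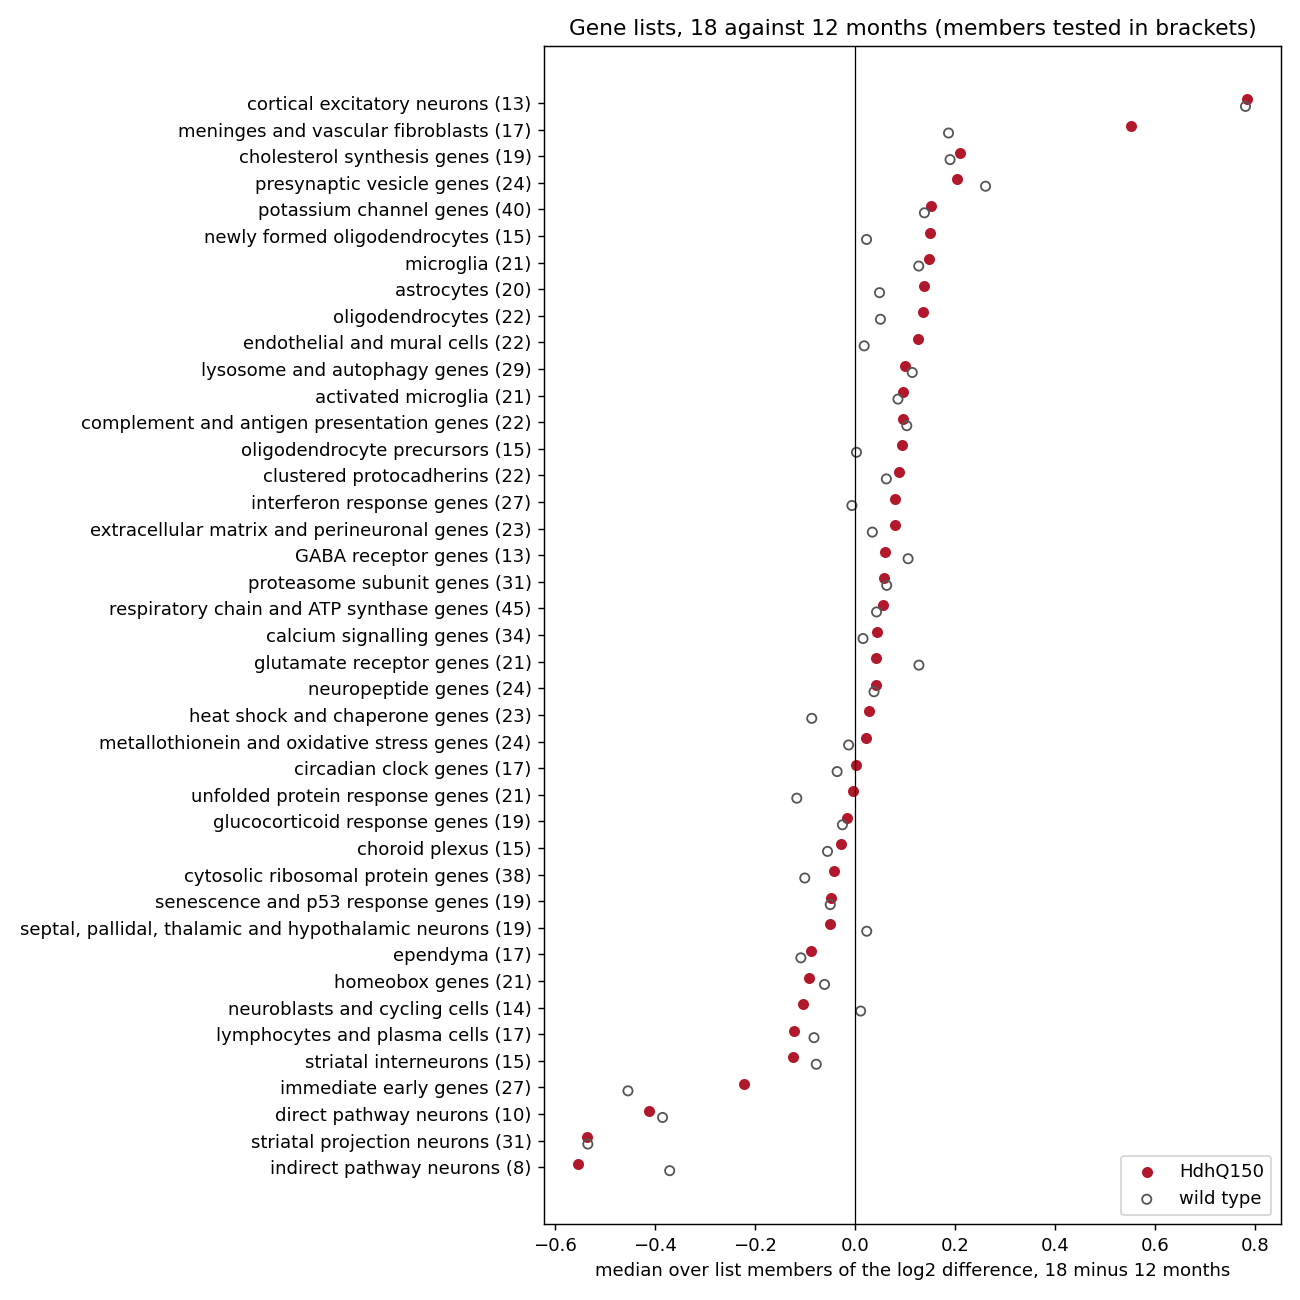
Median over the tested members of each gene list of the log2 difference between 18 and 12 months, in HdhQ150 mice (red) and wild-type mice (open circles), with the number of members in brackets. Cortical markers lie highest in both genotypes (0.78). The 3 lists of projection neurons lie lowest in HdhQ150 mice, while in wild-type mice the immediate early genes (-0.45) lie below 2 of them. The meningeal list is at 0.55 in HdhQ150 mice and 0.19 in wild-type mice.

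Few glial markers passed the test. Gfap, the intermediate filament of reactive astrocytes, was at 9.21, 8.77, 8.48 and 8.83 at 18 months, against 7.59, 8.05 and 8.16 at 12 months. It was 1.79-fold higher with no overlap between the ages (log2 difference 0.84, SE 0.161, limma adjusted p = 0.00118). Of 20 astrocyte markers 3 rose, Gfap, the water channel Aqp4 (0.40) and the gap junction protein Gjb6 (0.41), and none fell. The astrocyte list had a median of 0.14. Of 21 microglia markers 3 rose, the complement genes C1qb (0.53) and C1qc (0.47) and the receptor Csf1r (0.29), with a list median of 0.15. Of 21 genes of activated microglia, Igf1 (0.25) and Axl (0.20) rose and Lpl fell (-0.70). None of 22 oligodendrocyte markers passed, with a median of 0.14, and of 15 markers of newly formed oligodendrocytes Rras2 (0.64) and Tnr (0.36) rose. Of 15 precursor markers, Olig2 rose (0.25) and Cacng4 fell (-0.61). Of 17 lymphocyte markers 1 passed, Cd4, which was lower (-0.70). The shares of astrocyte and microglia markers that rose were 15% and 14.3%, or 3 genes each, beside 4.18% of all genes. For activated microglia, newly formed oligodendrocytes and precursors they were 9.52%, 13.3% and 6.67%. The shares that fell were 4.76% for activated microglia, 6.67% for precursors and 5.88% for lymphocytes, beside 1.61% of all genes. With the cortical marker term no marker of these lists passed, Gfap included, and the astrocyte and microglia medians were 0.20 and 0.15.

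Markers of meninges and vascular fibroblasts were higher, and 1 mouse stood apart. The mean level of the list was 8.12, 7.31, 7.31 and 7.33 at 18 months, and between 6.87 and 7.01 at 12 months, so that mouse 383 lay far above the other 3. Of 17 members 10 rose (58.8%, beside 4.18% of all genes), with a median of 0.55. Without mouse 383 the number was 5 and the median 0.30. With the cortical marker term no member passed, and the median was 0.46. Dcn, a proteoglycan of fibroblasts, was at 9.44, 7.95, 8.01 and 8.03 at 18 months, against 7.29, 7.48 and 7.87 at 12 months. Ccn3, a matrix protein made by fibroblasts and by some neurons, was at 8.65, 8.64, 8.42 and 8.51 at 18 months, against 6.72, 7.04 and 7.69 at 12 months. Both were higher with no overlap, Dcn by 1.65-fold and Ccn3 by 2.77-fold, and Ccn3 was not set apart by mouse 383. The collagens Col1a1 (-0.05), Col1a2 (0.04) and Col3a1 (-0.09) did not pass. Of 22 endothelial and mural markers Acta2, the actin of smooth muscle, rose (0.69), at 9.38, 8.06, 8.21 and 8.39 against 7.56, 7.91 and 8.05, again highest in mouse 383. It was 4.55% of that list, beside 4.18% of all genes. None of 15 markers of choroid plexus and 17 of ependyma passed. Ttr, the leading transcript of choroid plexus, was at 10.72, 9.68, 7.74 and 8.67 at 18 months, against 7.89, 8.84 and 9.55 at 12 months.

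Of 22 complement and antigen presentation genes 6 rose (27.3%, beside 4.18% of all genes), among them Serping1 (0.60), Cd74 (0.54), Psmb10 (0.32) and C4b (0.36). Without mouse 383 the number was 2, and without mouse 426 it was 3. C4b was at 8.59, 8.44, 8.74 and 8.51 at 18 months, against 8.13, 8.20 and 8.34 at 12 months. Of 27 interferon response genes 1 rose, Ifi27 (0.33), a share of 3.7% beside 4.18% of all genes. Of 29 lysosome and autophagy genes 4 rose (13.8%), Ctsl (0.33), Atp6v1a (0.29), Laptm4a (0.21) and Glb1 (0.20). In wild-type mice 4 members rose as well, and the list median was 0.11, beside 0.10 in HdhQ150 mice. With the cortical marker term the lysosome median in HdhQ150 mice was 0.003. No complement, interferon or lysosome gene passed with that term.

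Of 19 genes of cholesterol synthesis 7 rose (36.8%, beside 4.18% of all genes) and 12 did not pass. Hmgcs1, which makes the precursor of mevalonate, was at 9.41, 9.70, 9.65 and 9.65 at 18 months, against 8.62, 8.93 and 9.20 at 12 months. Insig1, a sterol-sensing regulator of the pathway, was at 8.33, 8.72, 8.74 and 8.53 at 18 months, against 7.90, 8.13 and 8.26 at 12 months. Both were without overlap, 1.57-fold (SE 0.122 on the log2 scale, limma adjusted p = 0.000914) and 1.38-fold (limma adjusted p = 0.00532) higher. The list had a median of 0.21, and the 7 that rose were Hmgcs1, Insig1, Sqle (0.51), Nsdhl (0.34), Fdft1 (0.33), Lss (0.28) and Dhcr7 (0.21). Without mouse 412 the number was 4, and with the cortical marker term it was 0 with a median of 0.17. Transcription of the pathway is known to run through sterol regulatory elements, and Hmgcs1 is shown as the member with the largest rise, with its element in capitals (RefSeq, GRCm38.p6, chr13:119690101-119690400, plus strand, 250 bases before the start to 50 after it):

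Hmgcs1 promoter: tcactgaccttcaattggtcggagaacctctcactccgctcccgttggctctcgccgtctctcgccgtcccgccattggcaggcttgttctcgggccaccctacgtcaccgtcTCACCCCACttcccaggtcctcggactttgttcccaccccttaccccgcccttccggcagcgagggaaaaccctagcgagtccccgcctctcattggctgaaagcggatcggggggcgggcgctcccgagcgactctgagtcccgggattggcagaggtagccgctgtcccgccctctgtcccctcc

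The element was searched on both strands as TCACNCCAC. It gave 1 match, on the strand shown and ending 129 bases before the start, and 1.24% of all windows in the table hold it. Of the 7 genes that rose, 5 had a window in the table and Hmgcs1 was the 1 with a match. Of the 19 genes tested 15 had a window, and 1 matched.

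Immediate early genes, which neuronal activity switches on within minutes, lay lower at 18 months in HdhQ150 mice for a few members. Egr2 was at 6.74, 6.59, 6.51 and 6.34 at 18 months, against 7.02, 7.33 and 7.51 at 12 months, and was 1.79-fold lower (limma adjusted p = 0.00221). Fosb (-0.41) and Nr4a3 (-0.51) were lower too, and none of the 27 members rose. The list had a median of -0.22 in HdhQ150 mice, where 3 members passed, 11.1% beside 1.61% of all genes called lower. In wild-type mice the median was -0.45 and 14 passed, all lower, where 2.07% of all genes were called lower. No member passed the test of a difference between the genotypes. With the cortical marker term 5 members fell in HdhQ150 mice, Egr1, Egr2, Egr3, Fosb and Dusp6, and the median was -0.52.

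No member passed among 23 heat shock genes, 21 genes of the unfolded protein response, 31 proteasome subunits, 45 genes of the respiratory chain and ATP synthase, 19 genes of senescence and the p53 response or 22 clustered protocadherins. Their medians lay between -0.05 and 0.09. Of 38 cytosolic ribosomal protein genes 1 was lower, Rpl13 (-0.23). Of 17 clock genes 2 rose, Rorb and Ciart (0.34), and of 19 glucocorticoid response genes 1 rose, Zbtb16 (0.91). Of 24 metallothionein and oxidative stress genes, the cystine transporter Slc7a11 rose (0.59) and Gpx6 fell. Of 23 genes of the extracellular matrix and perineuronal nets 4 rose, among them Hapln4, a link protein of perineuronal nets, and Fn1 (0.43). The shares that rose were 11.8% of clock, 5.26% of glucocorticoid response, 4.17% of oxidative stress and 17.4% of matrix genes, beside 4.18% of all genes. The shares that fell were 2.63% of ribosomal and 4.17% of oxidative stress genes, beside 1.61% of all genes.

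Wild-type littermates were compared between 18 and 12 months in the same fit. In them 759 genes were higher and 412 lower, 1171 in all (5.87%, with 3.81% higher and 2.07% lower), and without the 18-month mouse WT-401 the number was 696. Called in the same direction in both genotypes were 726 genes, 62.9% of the HdhQ150 calls and 62.0% of the wild-type calls, and 0 were called in opposite directions. The sign was the same in wild-type mice for 1143 of the 1154 HdhQ150 calls, and across all genes the differences of the genotypes correlated with r = 0.76. The mice differ between these comparisons, but both rest on the same estimate of the spread, and genes are not independent replicates. The projection neuron list had 26 members lower in wild-type mice with a median of -0.53, and the cortical list had 8 higher with a median of 0.78. All 15 lower and all 15 higher genes of smallest p in HdhQ150 mice passed in wild-type mice too, at -1.03 to -0.48 and 0.49 to 1.31.

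The change in HdhQ150 mice minus the change in wild-type mice passed for 0 of 19938 genes with limma, where the smallest adjusted p was 0.9999. An unadjusted p under 0.05 was found for 412 genes, a smaller share of the 19938 than the 0.05 expected where no gene differs. Over the 15 lower genes of smallest p the change differed between genotypes by -0.22 to 0.01, and over the 15 higher ones by -0.23 to 0.58. The smallest unadjusted p belonged to Kcng1, at 8.93, 8.67, 8.85 and 8.81 in 18-month HdhQ150 mice, against 9.27, 9.31 and 9.44 in those of 12 months. Its difference was -0.51 in HdhQ150 mice and 0.00 in wild-type mice. Ryr1, a calcium release channel, had a difference of -0.14 in HdhQ150 mice, which did not pass (limma adjusted p = 0.366), and of -0.63 in wild-type mice, which did. Stmn2, a regulator of microtubules in axons, was higher by 0.52 in HdhQ150 mice and by 0.96 in wild-type mice. None of these differences between genotypes passed after adjustment.

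**Figure D4:**
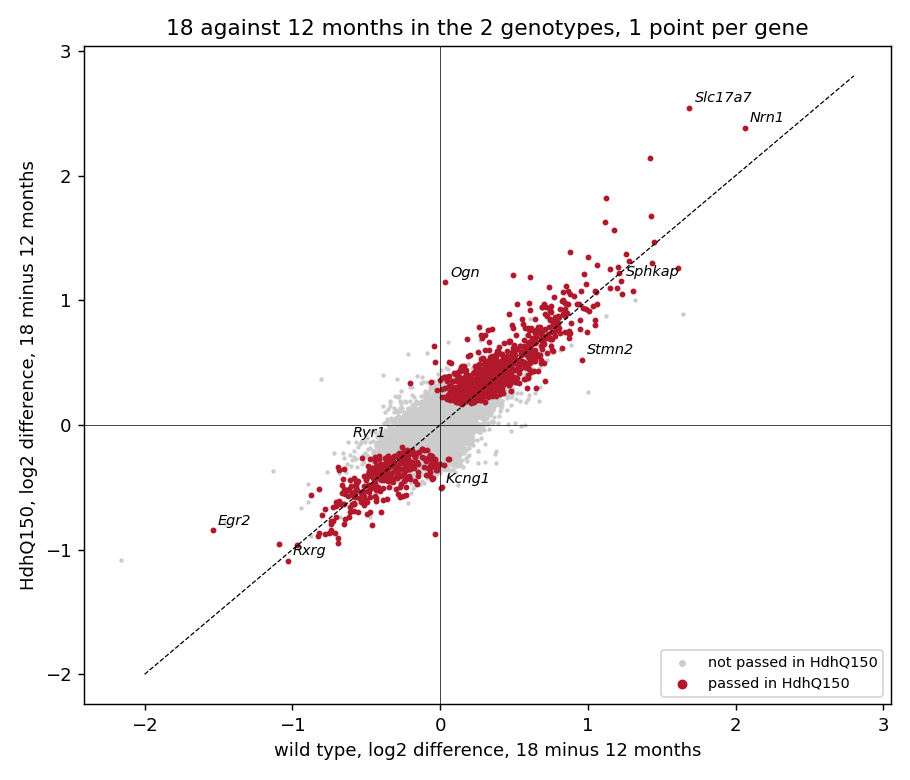
Log2 difference between 18 and 12 months of each gene in HdhQ150 mice (vertical axis) against that in wild-type mice (horizontal axis). Red points passed in HdhQ150 mice, grey points did not, and the dashed line marks equal differences. The points lie along the line (r = 0.76), and named genes off it, such as Kcng1, Ryr1 and Stmn2, did not pass the test of a difference between genotypes.

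The 6-month HdhQ150 mice set the 12-month values in context. The comparison of 12 with 6 months shares the 12-month arrays with that of 18 with 12 months, so that its values are given side by side and support nothing about the other. At 12 against 6 months 2372 genes were higher and 2227 lower (23.1%). In the cortical list 11 of 13 members were lower at 12 than at 6 months, with a median of -0.70, beside 10 higher at 18 than at 12 months. In the projection neuron list 15 of 31 were higher and 2 lower at 12 than at 6 months, with a median of 0.22, beside 25 lower at 18 than at 12 months. Slc17a7 had a difference of -2.44 at 12 against 6 months and 2.54 at 18 against 12 months, and for Rxrg the values were 0.58 and -1.09.

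Per HdhQ150 mouse, the cortical level ranged from 8.16 to 8.85 at 6 months, from 7.13 to 8.05 at 12 months and from 8.29 to 9.10 at 18 months. The projection neuron level ranged from 9.56 to 9.91 at 6 months, from 9.85 to 10.02 at 12 months and from 9.36 to 9.60 at 18 months. The 12-month mice were thus the lowest group for cortical and the highest for projection neuron markers, and the cortical levels of 6 and 18 months overlapped. In wild-type mice the cortical level lay between 8.31 and 9.02, 7.47 and 8.30, and 8.43 and 9.12 at the same 3 ages, and the projection neuron level between 9.84 and 10.01, 10.16 and 10.32, and 9.66 and 9.91. Penk was at 12.02 to 12.39 at 6 months in HdhQ150 mice, 12.11 to 12.46 at 12 months and 11.33 to 11.87 at 18 months, and its difference at 12 against 6 months was 0.05 (limma adjusted p = 0.689). Penk does not stand for its lists: 4 of 10 direct and 2 of 8 indirect pathway genes were higher at 12 than at 6 months, and none was lower. Those higher included Drd2 and Gpr6 (0.52 each), Tac1 (0.64) and Drd1 (0.39). Gfap ranged from 7.71 to 8.27 in the 6-month mice and from 7.59 to 8.16 in the 12-month mice, below all values of 18 months. No test of 18 against 6 months was made.

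**Figure D5:**
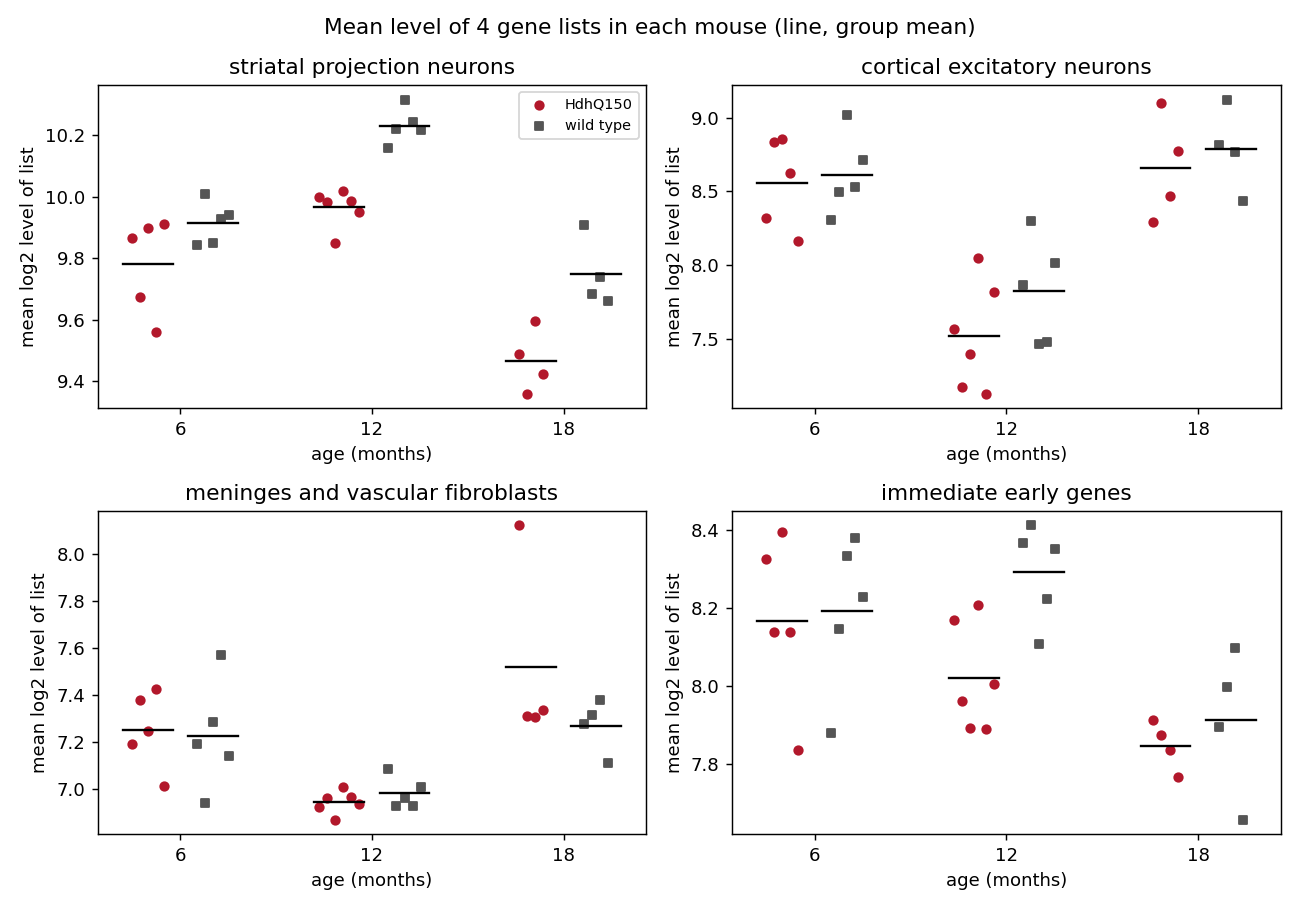
Mean log2 level of the members of 4 gene lists in each mouse at 6, 12 and 18 months, in HdhQ150 mice (red circles) and wild-type mice (grey squares). Lines are group means. In both genotypes the group mean at 12 months is lowest for cortical and highest for projection neuron markers. Single HdhQ150 mice of 6 and 12 months overlap for projection neuron markers. HdhQ150 mouse 383 stands alone at 8.12 for the meningeal list at 18 months.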

How the data were processed

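Per the labels' protocols, caudate RNA was isolated by TRIzol-chloroform, and a WT labeling kit of Affymetrix added biotin. The authors deposited log2 expression levels, and the submitters' processing notes name RMA in Affymetrix Expression Console. Its options and version, and the genome build, were not given in the sources used here. Because RMA values are normalized between arrays, differences are relative to the bulk of genes, and they compress the changes of dim genes. For arrays, precision is limited by their number.

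Of 35556 probe sets, 21789 had 1 gene symbol in the platform annotation, 1621 had several and 12146 are unnamed here. Symbols were updated by Entrez ID (21698 matched). Of several probe sets for 1 gene (999 genes), the one with the highest mean was kept, without regard to groups, which left 19938 genes. Of 63 called genes with several probe sets, 19 had another past the threshold in the same direction and 0 in the opposite one.

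The test was limma's (version 3.58.1, R 4.3.3, lmFit and eBayes with trend) on all 29 arrays with 6 group means and the labelled sex, which left 22 residual degrees of freedom. Two-sided p-values were adjusted after Benjamini and Hochberg, with a threshold of 0.05. The script was tested on simulated data. Each replicate is a separate mouse by its number.

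The text names the 15 genes of smallest p in each direction for HdhQ150 mice, up to 5 for wild type and for the difference between genotypes, genes set by name (Htt, striatal genes, Gfap, Gpx6 and Ryr1) and members of lists that passed or had small p. Predicted genes and clones were skipped (20 among the higher, 25 among the lower calls). The comparison, the lists and the genes were chosen with earlier results of these data known. Lists are described by counts and medians, with no set test. Promoters came from the RefSeq table of GRCm38.p6, matched by symbol. Alternatives covered samples, sex, probe sets, fold, scaling, array weights and left-out mice.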

Additional observations from a re-analysis of the deposited data

Results flagged for a closer look

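In 88 sets of values, each over the 4 HdhQ150 mice of 18 months or the 6 of 12 months, 6 held a mouse far from the others by Dixon's test, where chance flags about 1 in 20. At 18 months mouse 415 was low for Syt17, at 7.98, where the other 3 HdhQ150 mice lay between 8.29 and 8.34. In the same group mouse 383 was high for the mean level of markers of meninges and vascular fibroblasts, at 8.12, where the others lay between 7.31 and 7.33.

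At 12 months mouse 462 was low for 3 genes that were called lower at 18 months. Rxrg was at 9.76, with the other 5 mice at 9.98 to 10.10. Rasgrp2 was at 9.10, with the others at 9.31 to 9.43, and Rasd2 at 10.38, with the others at 10.62 to 10.74. Each of these values still lay above all 4 mice of 18 months. Mouse 453 was low for Gabra3, at 9.04, with the others at 9.35 to 9.48. The part of these single mice in the differences was measured by leaving each out, and Rxrg, Rasgrp2, Rasd2, Gabra3 and Syt17 passed each time.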

How the results depend on the processing

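The 1154 genes called in HdhQ150 mice (833 higher, 321 lower) became 707 (503 and 204) with only the groups compared, 2171 (1467 and 704) with array weights and 1789 without the wild-type mouse WT-454 (571 lower). With the cortical marker mean as a term, chosen after seeing the data, they became 30 (8 and 22). Leaving out 1 mouse of the compared groups gave 582 to 1256 genes (4.1e+02 to 933 higher, and 168 to 331 lower), with the lowest numbers without mouse 412. The 1171 wild-type calls became 2027 with array weights and 187 with the cortical term, and ranged from 696 to 1437 with 1 mouse left out. Under each of these alternatives 0 genes passed the difference between genotypes. The 25 projection neuron genes called lower became 4 with the cortical term and 23 to 25 with 1 mouse left out. The 10 cortical genes called higher became 0 with the term, as it is their own mean, and 6 to 11 with 1 mouse left out, and the 7 cholesterol genes became 0 and 4 to 8, or 11 with array weights. The causes were not tested, and leaving out mice or groups also left fewer samples. The 38 genes named for HdhQ150 mice kept their direction under every alternative that gave them a value, and Krt10, Egln3 and Gpx6 had none among the brighter genes. Gpx6 lost its call without mouse 412 (-0.46), and 27 genes lost theirs with the cortical term. Htt, Pdyn and Cnr1, which did not pass, passed under some alternatives: Htt without mouse 383 and with array weights (0.19), Pdyn with females alone, without the wild-type mouse WT-454, without mouse 453 or without mouse 415 (-0.51), and Cnr1 among the brighter genes, with array weights or without mouse 462 (-0.40).

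No paired analysis was possible because each mouse has a number of its own and appears at 1 age. All 18-month mice are female, so the sex term rests on the other ages.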

Other observations

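Of the 30 genes called with the cortical marker term, 9 had not been called without it. They were Cfap54, Egr1, Egr3, Dusp6, Per2, Arhgef3, Kctd1, Mapk4 and Pik3r4, named here after their values were seen. The 1 that was higher was Cfap54, a protein of motile cilia, with a difference of 1.76 (SE 0.256, limma adjusted p = 0.00346) beside 0.72 without the term (limma adjusted p = 0.0961). The activity-induced transcription factors Egr3 and Egr1 were at -0.74 and -0.82 with the term, beside -0.32 and -0.36 without it. Dusp6, a phosphatase of the ERK pathway, was at -0.82 with the term and -0.04 without it, and the clock gene Per2 at -0.46 and -0.06. The term too was chosen after the data had been seen.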
